A study of Mus musculus with 8 samples.

Results

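The TNF ligand and receptor superfamily is a set of secreted or membrane-bound trimeric ligands and the receptors that bind them. Members were taken by their gene symbols (Tnf, the numbered Tnfsf ligands and Tnfrsf receptors, Lta, Ltb, Ltbr, Cd27, Cd70, Cd40, Cd40lg, Fas, Fasl and Eda2r), with the probe of the highest mean signal standing for each gene. The annotation held 42 such genes, 41 had a probe on the array, and 38 passed the filter on low signals, out of 16565 named genes tested. A gene passed when, in 1 or more groups, the scanner software called its probe well above background in both mice. Of the 38, 35 were well above background in both untreated mice, and the other 3 (Cd70, Tnfsf11 and Tnfsf4) passed through the allergen groups, so that for them a difference from untreated lung followed from the filter. Tnfsf13 had no probe, and Cd40lg, Tnfrsf8 and Tnfsf18 did not pass.

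Total RNA from whole lung of female BALB/c mice was measured on 1-colour arrays, 1 mouse to an array and 2 mice in each of 4 groups, all collected on day 70. NT mice ate standard feed and met no allergen. The other 3 groups were sensitised to ovalbumin (OVA) by injection into the peritoneum with an aluminium adjuvant and then inhaled OVA aerosol. Ctrl-F mice ate standard feed, Cap-F mice a feed with control carbonate apatite particles, and ODNcap-F mice a feed with particles that carried CpG oligodeoxynucleotide, for 70 days. All mice came at 4 weeks of age and were housed for 2 weeks before the feeds began. The 8 arrays lay on 1 slide and were read in 1 scan. NT and Ctrl-F filled row 1 of the slide and Cap-F and ODNcap-F row 2, so in any comparison between rows the slide row and the group cannot be told apart. Each array had 61.3% to 65.0% of its 56605 probes well above background, and the correlation between the 2 mice of a group, across kept probes, was 0.994 to 0.996.

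In this family the ligands act through receptors that recruit TRAF adaptors and turn on NF-kB, or, where the receptor has a death domain, can start cell death. Several pairs sustain lymphocytes: BAFF and its receptors keep B cells and plasma cells alive, lymphotoxin organises lymphoid tissue, and pairs such as OX40 with its ligand costimulate T cells. TNF itself is a cytokine of airway inflammation, and OX40 ligand is known for its part in type 2 responses to inhaled allergen.

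Signals are log2 of the quantile-normalised intensity, so 1 unit is a doubling. Each difference comes from limma, fitted to all kept probes of the 8 arrays, and a gene is called at a p, adjusted over all kept probes, under 0.05. With 2 mice against 2, an exact permutation test on a single gene cannot go below a two-sided p of 0.333, so the calls rest on the spread that limma pools across genes and groups. Ctrl-F against NT asks what allergen exposure changed under standard feed. In Cap-F and ODNcap-F against NT the allergen, the feed and the slide row all differ and cannot be told apart. All of these comparisons share the 2 NT mice, so their values are given side by side. Over all genes, 83.9% to 86.4% had no overlap between the mice of an allergen group and the NT mice, so such separation of a single gene was common.

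In Ctrl-F against NT, 22 of the 38 members (57.9%) were higher and 6 (15.8%) lower, where 28.1% of all genes were higher and 36.9% lower. In Cap-F against NT, 23 members (60.5%) were higher and 7 (18.4%) lower, against 26.1% and 34.6% of all genes. In ODNcap-F against NT, 23 members (60.5%) were higher and 5 (13.2%) lower, against 27.3% and 35% of all genes. With a fold change over 2 as well, Ctrl-F had 18 members higher (47.4%) and 1 lower (2.63%), beside 11.3% and 12% of all genes. Cap-F had 16 higher (42.1%) and 1 lower (2.63%) by that rule, beside 10.7% and 10.2%. ODNcap-F had 17 higher (44.7%) and 1 lower (2.63%), beside 10.9% and 10.1%, and its counts were 10 and 1 with normexp background correction. The family's shares on the higher side thus stood above those of all genes in each comparison, and its shares on the lower side below them. No test was made of the family as a set.

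Leaving out the 3 members that passed through the allergen groups, 19, 20 and 20 of 35 were higher in the Ctrl-F, Cap-F and ODNcap-F groups, and 6, 7 and 5 lower. With a fold change over 2 as well, 15, 13 and 14 of these 35 were higher (42.9%, 37.1% and 40%) and 1 lower in each. The median log2 difference from NT over the 38 members was 0.86 for Ctrl-F, 0.91 for Cap-F and 0.89 for ODNcap-F, beside -0.09, -0.10 and -0.09 for all genes. These medians are the same with the 3 members set to the values against a detection floor given with them further on. Among the 14 ligands, 10 were higher and 2 lower in Ctrl-F, 11 and 2 in Cap-F, and 11 and 2 in ODNcap-F. The 3 members that passed through the allergen groups are all ligands, and without them 7, 8 and 8 of 11 ligands were higher, where 26.1% to 28.1% of all genes were. Of the 24 receptors, 12 were higher in every allergen group, and 4, 5 and 3 were lower in the Ctrl-F, Cap-F and ODNcap-F groups.

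**Figure D1:**
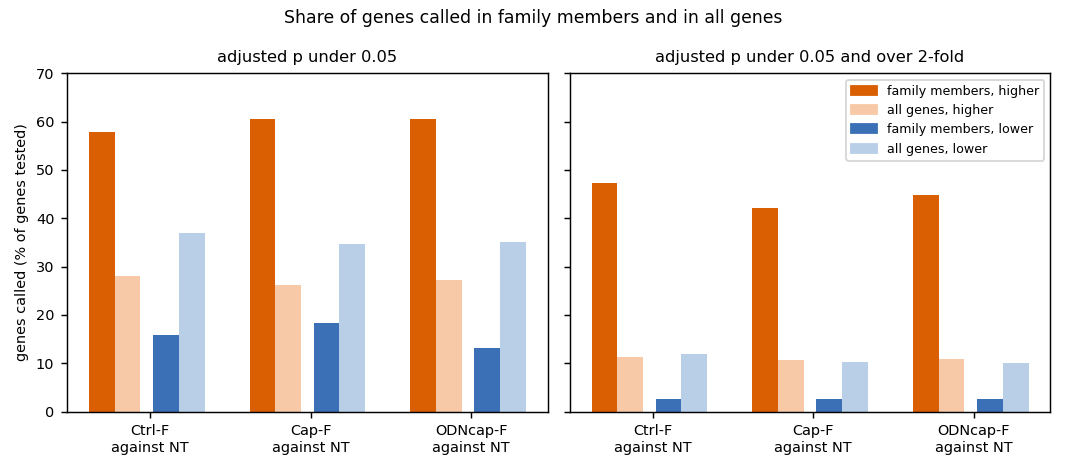
Share of the 38 family members and of all 16565 genes called higher or lower in each allergen group against NT (bars, percent of genes tested), by the adjusted p alone (left) and with a fold change over 2 (right). The bars for members called higher reach 57.9%, 60.5% and 60.5% on the left, beside 28.1%, 26.1% and 27.3% for all genes.

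**Figure D2:**
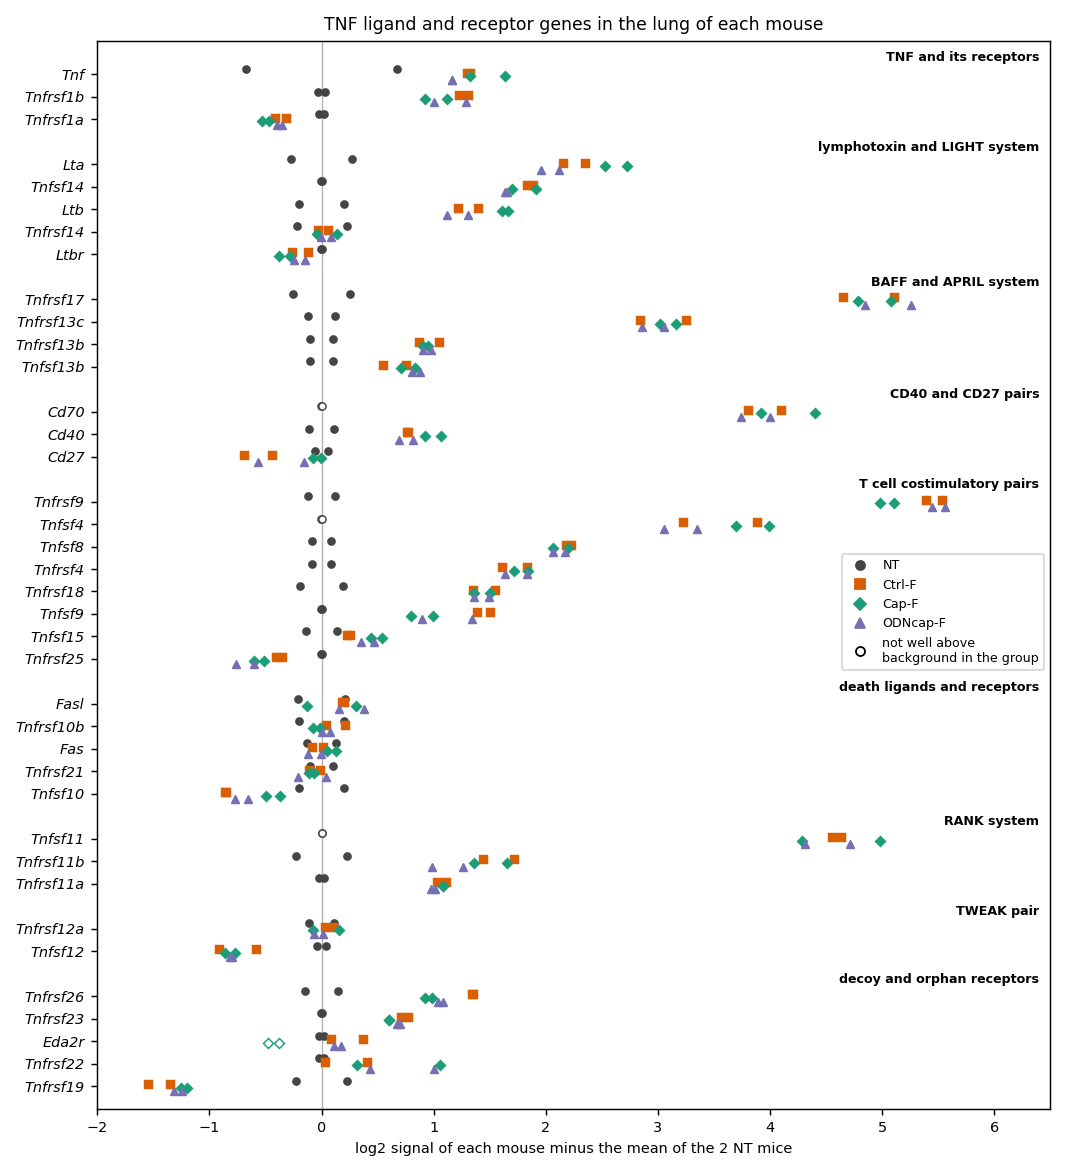
Log2 signal of each member in each mouse, less the mean of the 2 NT mice (horizontal axis), grouped by role; each marker is 1 mouse and open markers are groups not well above background. Among members well above background in NT, Tnfrsf9 and Tnfrsf17 lie farthest to the right and Tnfrsf19 farthest to the left.

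TNF is the family's founding cytokine. Its log2 signal was 5.28 and 6.62 in the NT mice, 7.27 and 7.25 in Ctrl-F, 7.59 and 7.27 in Cap-F, and 7.11 and 7.11 in ODNcap-F. All 6 allergen mice lay above both NT mice, with a wider gap between the NT mice than within any other group. The log2 difference from NT was 1.31 (95% confidence interval 0.32 to 2.30, adjusted p = 0.0315) in Ctrl-F, 1.48 (adjusted p = 0.0226) in Cap-F and 1.16 (adjusted p = 0.0482) in ODNcap-F. The dimmer Tnf probe differed by 1.17, 1.09 and 1.05, with adjusted p of 0.00377, 0.00553 and 0.00616. The size and the call of the brighter probe depended on single arrays and on other choices. A fit of only the 2 groups lost the call in every comparison (adjusted p = 0.0798, 0.0731 and 0.104), as did leaving out the filter (0.0722, 0.0547 and 0.101). The ODNcap-F call was also lost with 75th percentile scaling (0.0501) and the replicate block (0.0624). Without NT mouse 1 the differences were 0.64, 0.81 and 0.49, and without NT mouse 2 that of Ctrl-F was 1.98 and that of ODNcap-F 1.83. The Ctrl-F call was lost without Ctrl-F mouse 1 (adjusted p = 0.103) or mouse 2 (0.0971), and without either ODNcap-F mouse (0.0531 each). The Cap-F call was lost without Cap-F mouse 1 (0.0981) or mouse 2 (0.054). The ODNcap-F call ended without either mouse of Ctrl-F (0.0752 each), Cap-F (0.0678 each) or ODNcap-F (0.135 each).

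Its receptors moved in opposite directions. Tnfrsf1b, found mainly on leukocytes and endothelium, read 8.23 and 8.17 in the NT mice, 9.51 and 9.43 in Ctrl-F, 9.32 and 9.13 in Cap-F, and 9.49 and 9.21 in ODNcap-F. Tnfrsf1a, the widely expressed receptor with a death domain, read 13.18 and 13.14 in the NT mice, 12.75 and 12.85 in Ctrl-F, 12.69 and 12.63 in Cap-F, and 12.77 and 12.81 in ODNcap-F. Neither receptor had an allergen mouse within the range of the NT mice. Tnfrsf1b rose 2.41-fold in Ctrl-F (adjusted p = 0.000325), 2.03-fold in Cap-F and 2.21-fold in ODNcap-F. Tnfrsf1a fell by 0.36 on the log2 scale in Ctrl-F (adjusted p = 0.00542), by 0.50 in Cap-F and by 0.37 in ODNcap-F, and its dimmer probe differed by -0.42, -0.68 and -0.50. With arrays scaled to their 75th percentile in place of quantile normalisation, the Ctrl-F difference of Tnfrsf1a was -0.23 (adjusted p = 0.0475).

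The lymphotoxins are made by lymphocytes, Lta as a secreted trimer and, joined with Ltb, as a membrane complex that binds Ltbr. Lta read 5.82 and 5.28 in the NT mice, 7.90 and 7.70 in Ctrl-F, 8.28 and 8.08 in Cap-F, and 7.67 and 7.50 in ODNcap-F. Ltb read 13.31 and 12.91 in the NT mice, 14.50 and 14.33 in Ctrl-F, 14.78 and 14.72 in Cap-F, and 14.41 and 14.23 in ODNcap-F. For both genes every allergen mouse stood above the NT mice. Lta rose 4.76-fold in Ctrl-F (log2 2.25, adjusted p = 0.000243), 6.18-fold in Cap-F and 4.10-fold in ODNcap-F, and with normexp background correction its Ctrl-F and ODNcap-F differences were 1.40 and 1.23. Ltb rose 2.47-fold (log2 1.31, adjusted p = 0.000711), 3.11-fold and 2.31-fold. Tnfsf14 (LIGHT), a T cell ligand of Ltbr and Tnfrsf14, read 6.83 and 6.82 in the NT mice, 8.66 and 8.71 in Ctrl-F, 8.74 and 8.52 in Cap-F, and 8.48 and 8.46 in ODNcap-F. The NT mice lay close together and far below the others, and the differences were 1.86, 1.80 and 1.65 (adjusted p = 3.61e-05, 4.64e-05 and 5.84e-05).

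The receptors of these ligands differed less. Ltbr, carried by stromal and myeloid cells, read 12.18 and 12.18 in NT and between 11.80 and 12.06 in the allergen mice, all of them below NT. It fell by 0.33 in Cap-F (adjusted p = 0.0152), while the Ctrl-F and ODNcap-F differences, -0.19 and -0.20, were not called (adjusted p = 0.0835 and 0.0773). The Cap-F call was lost without NT mouse 1 (adjusted p = 0.0613), NT mouse 2 (0.0644) or Cap-F mouse 1 (0.0818). Tnfrsf14 (HVEM) was not called in any group, with differences of 0.02 to 0.05 and an interval in Ctrl-F from -0.37 to 0.40.

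Ltb, Tnf and Lta are neighbours on chromosome 17, with 0 protein-coding genes between them, and all 3 rose. The promoters of these 3 genes are printed to show them side by side, from RefSeq on GRCm38.p6, 250 bases before to 50 after the start, 5′ to 3′ on the gene's strand. Ltb is at chr17:35194257-35194556, plus strand, Tnf at chr17:35201958-35202257, minus strand and Lta at chr17:35205302-35205601, minus strand. Capitals mark matches to the motifs searched on both strands: the kappa B consensus bound by NF-kB, AP-1 (TGANTCA) and the TATA box (TATAAA).
Ltb: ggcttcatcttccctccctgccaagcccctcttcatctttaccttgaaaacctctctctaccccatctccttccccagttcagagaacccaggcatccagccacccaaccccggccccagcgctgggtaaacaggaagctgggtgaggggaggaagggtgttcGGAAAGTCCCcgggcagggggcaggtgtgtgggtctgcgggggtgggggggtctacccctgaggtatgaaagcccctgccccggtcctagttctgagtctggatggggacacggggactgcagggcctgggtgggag
Tnf: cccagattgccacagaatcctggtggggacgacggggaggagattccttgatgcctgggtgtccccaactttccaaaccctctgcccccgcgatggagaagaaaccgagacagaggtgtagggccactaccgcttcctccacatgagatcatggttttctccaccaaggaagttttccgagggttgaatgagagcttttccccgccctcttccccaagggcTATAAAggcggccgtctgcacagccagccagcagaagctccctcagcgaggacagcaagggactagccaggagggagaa
Lta: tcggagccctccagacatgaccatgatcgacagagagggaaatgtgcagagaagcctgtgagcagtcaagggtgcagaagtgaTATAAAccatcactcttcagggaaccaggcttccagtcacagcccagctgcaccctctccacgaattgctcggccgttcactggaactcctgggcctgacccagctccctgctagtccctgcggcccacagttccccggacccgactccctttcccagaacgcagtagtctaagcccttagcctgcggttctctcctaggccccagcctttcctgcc
The kappa B match in Ltb began 87 bases before the start. The TATA match lay 29 bases before the start in Tnf and 167 in Lta. Of 32851 promoters, 8.46% held the kappa B consensus, 7.81% AP-1 and 13.6% the TATA box. A match is a run of letters and shows no binding.

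The receptors of BAFF and APRIL rose together. Tnfrsf17 (BCMA), the receptor of plasma cells, read 4.71 and 4.20 in the NT mice, 9.56 and 9.11 in Ctrl-F, 9.24 and 9.53 in Cap-F, and 9.72 and 9.30 in ODNcap-F. Tnfrsf13c (BAFF receptor), the survival receptor of B cells, read 8.51 and 8.27 in the NT mice, 11.64 and 11.23 in Ctrl-F, 11.56 and 11.41 in Cap-F, and 11.44 and 11.25 in ODNcap-F. Both were far higher in every allergen mouse than in NT, and the 3 allergen groups overlapped. Tnfrsf17 rose 29.4-fold in Ctrl-F (log2 4.88, adjusted p = 4.85e-05), 30.5-fold in Cap-F and 33.2-fold in ODNcap-F, and with normexp background correction by log2 3.08, 3.10 and 3.21. Tnfrsf13c rose 8.24-fold (log2 3.04, adjusted p = 5.62e-05), 8.51-fold and 7.75-fold, and its dimmer probe by log2 2.39, 2.40 and 2.28. Tnfrsf13b (TACI), which binds both BAFF and APRIL, rose by log2 0.96, 0.93 and 0.94. The dimmer Tnfrsf13b probe was well above background on 1 of the 2 NT arrays, so the size of its difference was not measured. The mean of both probes, with fitted differences of 2.57, 2.53 and 2.48, shares that limit. The ligand BAFF (Tnfsf13b) rose less, by 0.65, 0.77 and 0.84 (adjusted p = 0.00341, 0.00198 and 0.0013).

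Beside these, 7 of 8 B cell marker genes were higher for Ctrl-F, 8 for Cap-F and 7 for ODNcap-F, and 4 of 4 plasma cell markers in each. On the log2 scale the summed B cell markers read 13.58 and 13.09 in the NT mice, 15.40 and 15.00 in Ctrl-F, 15.50 and 15.47 in Cap-F, and 15.20 and 15.11 in ODNcap-F, with Cd79b the brightest. The summed plasma cell markers read 12.34 and 12.20 in the NT mice, 17.03 and 17.01 in Ctrl-F, 16.90 and 17.02 in Cap-F, and 16.94 and 17.20 in ODNcap-F, with Jchain the brightest. In whole lung, more cells of a type and more RNA per cell cannot be told apart. All genes of both lists were well above background in NT, and the part of these lists in the receptor results was not tested.

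Cd40, the receptor by which T cells activate B cells and dendritic cells, rose by 0.77 in Ctrl-F (adjusted p = 0.00124), 0.99 in Cap-F and 0.76 in ODNcap-F. Its ligand Cd40lg was well above background on 0 of the 8 arrays. Cd70, the ligand of Cd27 on activated lymphocytes and dendritic cells, read 1.78 and 1.79 in the NT mice, 5.88 and 5.59 in Ctrl-F, 6.19 and 5.71 in Cap-F, and 5.79 and 5.53 in ODNcap-F. It was well above background in all 6 allergen mice and in neither NT mouse. The dimmest probe called well above background on each NT array read log2 3.64 and 3.61. Against this floor, Cd70 was 4.32-fold higher for Ctrl-F, 5.01-fold for Cap-F and 4.09-fold for ODNcap-F. The floor is not a strict limit, since a probe can read above it and not be called well above background. The dimmer Tnfrsf10b probe did so in NT mouse 1, at 3.72. Values against a floor are therefore approximate and not lower bounds. With normexp background correction the fitted differences of Cd70 were log2 0.87, 1.01 and 0.89, smaller than the values against the floor. Its receptor Cd27, found on resting T cells, read 6.60 and 6.49 in the NT mice, 6.11 and 5.86 in Ctrl-F, 6.47 and 6.54 in Cap-F, and 6.39 and 5.98 in ODNcap-F. The Ctrl-F and ODNcap-F mice were below NT, and the Cap-F mice overlapped it. Cd27 fell by 0.56 in Ctrl-F (adjusted p = 0.0217), and the differences of -0.04 in Cap-F and -0.36 in ODNcap-F (adjusted p = 0.844 and 0.0922) were not called. The Ctrl-F call was lost without NT mouse 1 (adjusted p = 0.0974), NT mouse 2 (0.0588) or Ctrl-F mouse 2 (0.105), and in the local-pooled-error test (0.0504).

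Of the 8 members in the T cell costimulatory pairs, 6 were higher for Ctrl-F, 7 for Cap-F and 7 for ODNcap-F, and 1 was lower in each. Without Tnfsf4, which passed the filter through the allergen groups, 5, 6 and 6 of 7 were higher, beside 28.1%, 26.1% and 27.3% of all genes. Tnfrsf9 (CD137), which activated T cells and NK cells display, read 5.09 and 4.85 in the NT mice, 10.36 and 10.51 in Ctrl-F, 10.08 and 9.95 in Cap-F, and 10.53 and 10.41 in ODNcap-F. No value of the 6 allergen mice came within 4 log2 units of NT. Tnfrsf9 rose 44.1-fold in Ctrl-F (log2 5.46, interval 5.19 to 5.74, adjusted p = 4.85e-06), 32.9-fold in Cap-F and 45.2-fold in ODNcap-F, the largest difference in each comparison among the 35 members well above background in both NT mice. In Cap-F its lead over Tnfrsf17 (log2 5.04 against 4.93) turned without NT mouse 1 (5.16 against 5.19). The dimmer Tnfrsf9 probe was not well above background in NT, so the size of its difference was not measured. Its ligand Tnfsf9, displayed by antigen-presenting cells, read 6.33 and 6.35 in the NT mice, 7.84 and 7.73 in Ctrl-F, 7.33 and 7.13 in Cap-F, and 7.23 and 7.69 in ODNcap-F. The NT mice were again lowest, and Tnfsf9 rose 2.72-fold in Ctrl-F (adjusted p = 0.000589), 1.86-fold in Cap-F and 2.17-fold in ODNcap-F.

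OX40 (Tnfrsf4), a receptor of activated and regulatory T cells, read 8.69 and 8.52 in the NT mice, 10.44 and 10.21 in Ctrl-F, 10.44 and 10.32 in Cap-F, and 10.43 and 10.24 in ODNcap-F. Its ligand Tnfsf4, a product of dendritic cells and other antigen-presenting cells, read 1.70 and 1.71 in the NT mice, 5.59 and 4.93 in Ctrl-F, 5.40 and 5.70 in Cap-F, and 5.06 and 4.76 in ODNcap-F. For both, the NT mice were apart from all others, and Tnfsf4 was not well above background in NT. Tnfrsf4 rose by 1.72, 1.78 and 1.73 (adjusted p = 0.000128, 0.000137 and 0.000145). Against the same floor, Tnfsf4 was 3.11-fold higher for Ctrl-F, 3.79-fold for Cap-F and 2.44-fold for ODNcap-F. With normexp background correction its fitted differences were log2 0.69, 0.76 and 0.56, smaller than these values.

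GITR (Tnfrsf18), rich on regulatory T cells, read 8.91 and 8.52 in the NT mice, 10.26 and 10.06 in Ctrl-F, 10.22 and 10.08 in Cap-F, and 10.20 and 10.07 in ODNcap-F. It rose by 1.45, 1.43 and 1.42 (adjusted p = 0.000484, 0.000589 and 0.000568), with the NT mice below all others. Its ligand Tnfsf18 was well above background on 2 of the 8 arrays, 1 of NT and 1 of Cap-F. The CD30 ligand Tnfsf8 read 5.35 and 5.18 in the NT mice, 7.49 and 7.44 in Ctrl-F, 7.46 and 7.32 in Cap-F, and 7.33 and 7.43 in ODNcap-F. All 6 allergen mice were above both NT mice, and Tnfsf8 rose 4.60-fold, 4.38-fold and 4.34-fold (adjusted p = 2.53e-05, 3.27e-05 and 3.24e-05). With normexp background correction it rose by log2 1.24, 1.20 and 1.22. Its receptor Tnfrsf8 (CD30) was well above background on 0 arrays.

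The remaining pair of this group moved little. The ligand Tnfsf15 (TL1A), made by endothelium and myeloid cells, rose by 0.49 in Cap-F (adjusted p = 0.0106) and 0.41 in ODNcap-F (adjusted p = 0.0202), and its difference of 0.24 in Ctrl-F was not called (adjusted p = 0.106). The dimmer Tnfsf15 probe differed by 0.48, 0.73 and 0.68 (adjusted p = 0.0308, 0.00712 and 0.00881). The Cap-F call was lost without Cap-F mouse 1 (adjusted p = 0.0577). The ODNcap-F call was lost without NT mouse 1 (difference 0.27, adjusted p = 0.08) or ODNcap-F mouse 1 (0.0893), in a fit of only the 2 groups (0.0595), and in the local-pooled-error test (0.065). Its receptor Tnfrsf25, which costimulates T cells, read 10.76 and 10.77 in the NT mice, 10.41 and 10.36 in Ctrl-F, 10.16 and 10.26 in Cap-F, and 10.16 and 10.01 in ODNcap-F. It fell in all 3 groups, by 0.38, 0.56 and 0.68 (adjusted p = 0.00769, 0.00199 and 0.000845), and no allergen mouse reached the NT values.

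Several of these genes lie side by side in the genome with 0 protein-coding genes between them: Tnfsf9, Cd70 and Tnfsf14 on chromosome 17, Tnfrsf4 and Tnfrsf18 on chromosome 4, and Tnfsf15 and Tnfsf8 on chromosome 4. The members of the first 2 of these clusters were higher in every allergen group, though for Cd70 a difference from NT followed from the filter. In the last, Tnfsf8 rose in every group and Tnfsf15 was not called in Ctrl-F. Other neighbours did not move alike: Tnfsf4, which also passed through the allergen groups, lies beside Tnfsf18 and Fasl on chromosome 1, where Fasl was not called. Of the 42 genes, 9 are on chromosome 4 and 8 on chromosome 17.

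Of 9 T cell genes, 8 were higher in each allergen group and Lck was the brightest. Their summed log2 signal read 13.60 and 13.19 in the NT mice, 14.24 and 14.08 in Ctrl-F, 14.39 and 14.31 in Cap-F, and 14.27 and 13.91 in ODNcap-F. When single arrays were left out, the number called ranged from 4 to 8 in Ctrl-F and in ODNcap-F. Of 6 markers of type 2 lymphocytes, 5 were higher in each group, with Il5 and Il13 not well above background in NT and Gata3, the brightest, not called. Without Il5 and Il13, which passed the filter through the allergen groups, 3 of 4 were higher in each. Their summed log2 signal read 11.38 and 11.93 in NT and from 12.30 to 12.65 in the allergen mice. Of 4 regulatory T cell genes, 3, 3 and 2 were higher in the Ctrl-F, Cap-F and ODNcap-F groups, with Ctla4 not well above background in NT and Ikzf4 the brightest. Without Ctla4 the counts were 2, 2 and 1 of 3. Their summed log2 signal read 9.18 and 9.39 in NT and 9.55 to 9.79 in the allergen mice. Cycling genes, with Mki67 the brightest, were higher in 4 of 4 in each group, and their summed log2 signal was at most 10.17 in NT and from 13.66 to 13.84 in the allergen mice. The part of these lists in the results on costimulatory pairs was not tested.

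Of the 5 death ligands and receptors, 0 were higher and 1 was lower in each comparison, beside the 26.1% to 28.1% of all genes higher and 34.6% to 36.9% lower. Tnfsf10 (TRAIL), a ligand that can kill through Tnfrsf10b, read 11.55 and 11.95 in the NT mice, 10.89 and 10.90 in Ctrl-F, 11.37 and 11.25 in Cap-F, and 11.09 and 10.97 in ODNcap-F. All 6 allergen mice were below NT. Tnfsf10 fell by 0.85 in Ctrl-F (adjusted p = 0.00285), by 0.43 in Cap-F (adjusted p = 0.0393) and by 0.72 in ODNcap-F (adjusted p = 0.00609). The Cap-F call was lost without NT mouse 2 (difference -0.23, adjusted p = 0.131), without Cap-F mouse 1 (0.0796) or mouse 2 (0.151), and without either mouse of Ctrl-F (0.0639 each) or ODNcap-F (0.057 each). It was also lost with no filter (0.0725), in a fit of only the 2 groups (0.0947) and with the replicate number as a block (0.0599). Fas and Fasl, the pair by which cytotoxic cells kill, were not called: Fas differed by -0.03, 0.09 and -0.07 and Fasl by 0.19, 0.09 and 0.27. The intervals for Ctrl-F ran from -0.30 to 0.23 for Fas and from -0.28 to 0.67 for Fasl. Tnfrsf10b and Tnfrsf21, both death-domain receptors, were not called either, with differences between -0.09 and 0.13. The dimmer Tnfrsf10b probe was well above background on 0 of the NT arrays, 2 of Ctrl-F, 1 of Cap-F and 1 of ODNcap-F. It passed the filter through Ctrl-F, so a difference from NT followed from the filter, and no call is read from it. The dimmer Tnfrsf21 probe differed by -0.09, -0.33 and -0.33 (adjusted p = 0.285, 0.00606 and 0.00572).

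Beside these values, 3 of 5 NK cell markers were lower in each allergen group, with Gzma the brightest, and 1 was higher in Cap-F. The number called in ODNcap-F ran from 3 to 5 as single arrays were left out. Their summed log2 signal read 14.10 and 14.05 in the NT mice, 13.29 and 13.18 in Ctrl-F, 13.40 and 13.20 in Cap-F, and 13.36 and 13.21 in ODNcap-F. Endothelial markers were lower in 5 of 5 genes in each group, and their summed log2 signal read 15.94 and 15.92 in NT and 14.52 to 14.83 in the allergen mice, with Cldn5 the brightest. Alveolar type 1 markers were lower in 4 of 4, with sums of 17.71 and 17.77 in NT and 16.63 to 16.92 in the allergen mice, with Ager the brightest. The part of these lists in the members that fell was not tested.

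The RANK system, best known from bone and lymph nodes, was called higher in 3 of 3 members in each comparison. Without Tnfsf11, which passed the filter through the allergen groups, 2 of 2 were higher, where 26.1% to 28.1% of all genes were. RANK ligand (Tnfsf11), which T cells can make, read 1.89 and 1.89 in the NT mice, 6.52 and 6.44 in Ctrl-F, 6.88 and 6.17 in Cap-F, and 6.60 and 6.20 in ODNcap-F. It was well above background in all 6 allergen mice and in neither NT mouse. Against the NT floor, Tnfsf11 was 7.24-fold higher for Ctrl-F, 7.47-fold for Cap-F and 6.86-fold for ODNcap-F. With normexp background correction its fitted differences were log2 1.17, 1.22 and 1.20, smaller than these values. A dimmer Tnfsf11 probe, also not well above background in NT, read 4.60 to 5.37 in the allergen mice. That is nearer to the floor, so its difference from the floor is smaller. Its receptor Tnfrsf11a (RANK), of myeloid and dendritic cells, rose 2.10-fold (log2 1.07), 2.12-fold and 2.00-fold (adjusted p = 7.99e-05, 9.19e-05 and 0.000115), and its dimmer probe by log2 1.62, 1.51 and 1.48. Osteoprotegerin (Tnfrsf11b), the soluble receptor that binds RANK ligand and TRAIL and blocks them, read 6.72 and 7.18 in the NT mice, 8.67 and 8.39 in Ctrl-F, 8.60 and 8.31 in Cap-F, and 8.21 and 7.93 in ODNcap-F. Its NT mice were lowest. Tnfrsf11b rose 2.98-fold in Ctrl-F (adjusted p = 0.00105), 2.84-fold in Cap-F and 2.17-fold in ODNcap-F.

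The promoters of Tnfrsf9, Tnfrsf17 and Tnfsf11, 3 members called higher in all 3 comparisons with NT, are printed to show them side by side. They are also from RefSeq on GRCm38.p6 and follow the same layout and motifs. Tnfrsf9 has 2 starts in the table, at chr4:150919905-150920204, plus strand, and chr4:150927749-150928048, plus strand. Tnfrsf17 is at chr16:11313559-11313858, plus strand, and Tnfsf11 at chr14:78307994-78308293, minus strand.
Tnfrsf9 start 1: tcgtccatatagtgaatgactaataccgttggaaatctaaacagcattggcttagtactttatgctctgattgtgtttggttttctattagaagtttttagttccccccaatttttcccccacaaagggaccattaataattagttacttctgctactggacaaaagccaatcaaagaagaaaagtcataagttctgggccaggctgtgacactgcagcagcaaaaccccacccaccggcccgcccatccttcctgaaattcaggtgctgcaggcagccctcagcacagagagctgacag
Tnfrsf9 start 2: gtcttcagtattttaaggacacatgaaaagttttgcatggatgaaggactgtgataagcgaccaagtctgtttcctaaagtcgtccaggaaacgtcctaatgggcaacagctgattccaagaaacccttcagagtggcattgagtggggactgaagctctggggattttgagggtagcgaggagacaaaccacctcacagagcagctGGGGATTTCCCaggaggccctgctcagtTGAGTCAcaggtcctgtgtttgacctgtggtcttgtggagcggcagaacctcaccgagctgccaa
Tnfrsf17: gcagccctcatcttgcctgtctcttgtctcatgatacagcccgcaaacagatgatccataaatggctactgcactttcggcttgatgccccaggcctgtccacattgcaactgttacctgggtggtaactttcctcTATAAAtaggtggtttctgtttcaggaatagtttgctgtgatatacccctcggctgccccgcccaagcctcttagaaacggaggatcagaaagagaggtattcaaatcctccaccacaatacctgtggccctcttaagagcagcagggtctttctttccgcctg
Tnfsf11: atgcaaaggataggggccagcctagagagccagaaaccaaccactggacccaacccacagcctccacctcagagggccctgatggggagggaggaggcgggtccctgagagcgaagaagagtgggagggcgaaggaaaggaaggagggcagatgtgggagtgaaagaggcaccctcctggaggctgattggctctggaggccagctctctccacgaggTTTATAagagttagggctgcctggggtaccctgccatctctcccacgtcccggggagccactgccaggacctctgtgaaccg
Tnfrsf9 held the kappa B consensus at its second start, 43 and 42 bases before it in overlapping matches, and an AP-1 match 15 bases before it. The TATA match lay 114 bases before the start in Tnfrsf17 and 32 before it in Tnfsf11. The promoter table held 32 of the 42 genes, with 36 starts, and 4 members had the kappa B consensus in at least 1 promoter, 6 had AP-1 and 7 the TATA box. The 4 with the kappa B consensus were Ltb, Tnfrsf9, Tnfrsf8 and Tnfrsf25, of which Ltb and Tnfrsf9 rose, Tnfrsf25 fell and Tnfrsf8 was not measurable. Not in the table were Cd40, Cd40lg, Cd70, Tnfsf4, Tnfsf9, Tnfrsf10b, Tnfrsf11b, Tnfsf12, Tnfrsf22 and Tnfrsf26.

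TWEAK (Tnfsf12), a ligand made by macrophages and other cells, read 9.26 and 9.34 in the NT mice, 8.38 and 8.71 in Ctrl-F, 8.44 and 8.52 in Cap-F, and 8.48 and 8.50 in ODNcap-F. The NT mice were highest, and Tnfsf12 fell by 0.75, 0.82 and 0.80 (adjusted p = 0.00248, 0.00202 and 0.00199). Its receptor Tnfrsf12a, induced by tissue injury in many organs, was not called, with differences of 0.07, 0.04 and -0.03 and an interval in Ctrl-F from -0.21 to 0.35.

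Among the decoy and orphan receptors, Tnfrsf19 (TROY), a receptor of epithelial and stem cells, read 9.92 and 10.38 in the NT mice, 8.60 and 8.80 in Ctrl-F, 8.95 and 8.90 in Cap-F, and 8.91 and 8.83 in ODNcap-F. Every allergen mouse was below NT, and Tnfrsf19 fell by 1.45, 1.23 and 1.28 (adjusted p = 0.000585, 0.00127 and 0.00102), making it the 1 member over 2-fold lower. Its other probe differed by -0.12, -0.46 and 0.00 and was not called (adjusted p = 0.531, 0.0512 and 0.999), so the fall belongs to 1 probe of 2. With the mean of both probes the Ctrl-F and ODNcap-F differences were -0.78 and -0.64 (adjusted p = 0.00172 and 0.00411). Tnfrsf26, an orphan receptor of the mouse, read 6.08 and 5.79 in the NT mice, 7.29 and 7.27 in Ctrl-F, 6.92 and 6.85 in Cap-F, and 6.98 and 7.02 in ODNcap-F. It rose 2.54-fold, 1.93-fold and 2.09-fold (adjusted p = 0.000181, 0.000724 and 0.000456), and with normexp background correction by log2 0.76, 0.45 and 0.56. Tnfrsf23, a decoy receptor for TRAIL without a death domain, rose by 0.74, 0.60 and 0.68 (adjusted p = 0.000227, 0.000551 and 0.000337). The other such decoy, Tnfrsf22, with signals of 4.40 to 5.48, was not called (differences of 0.22, 0.68 and 0.71, with an interval in Ctrl-F from -0.51 to 0.95).

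Eda2r, the receptor of an ectodysplasin form, read 4.44 and 4.38 in the NT mice, 4.78 and 4.49 in Ctrl-F, 4.03 and 3.93 in Cap-F, and 4.52 and 4.58 in ODNcap-F. The Cap-F mice alone were below NT, and there the gene was not well above background. Against the floor of the Cap-F arrays, Eda2r was 1.28-fold lower in Cap-F. The fitted difference was called (adjusted p = 0.0184), a call lost with normexp background correction (0.0759), with an intensity trend (0.138), in the local-pooled-error test (0.518), and without NT mouse 1 (0.0816), NT mouse 2 (0.0609) or Cap-F mouse 2 (0.0861).

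The genes through which the receptors signal were taken from 7 lists of 67 genes, of which 64 were tested. Each is given by its brightest probe, and other probes, where a gene had them, are not given. Of the 64, 38 were higher and 10 lower in Ctrl-F, 40 and 7 in Cap-F, and 38 and 9 in ODNcap-F, against the shares of all genes given above. Of the 64, 2 (Cxcl2 and Il6) passed the filter through the allergen groups, and without them 36, 38 and 36 of 62 were higher. Of 15 adaptors and ubiquitin ligases, 8 were higher and 3 lower in Ctrl-F, 9 and 0 in Cap-F, and 8 and 3 in ODNcap-F. The inhibitor of apoptosis Birc3 rose by 1.17 in Ctrl-F, Traf4 by 0.93 and Tank by 0.84, while Traf1 (-0.40), Rnf31 (-0.33) and Ripk1 (-0.26) fell. The number called among the 15 in Ctrl-F ran from 5 to 11 as single arrays were left out, and in ODNcap-F from 6 to 9, beside 11 with all arrays.

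Among 13 NF-kB kinases and subunits, 6 were higher and 2 lower in Ctrl-F, 6 and 2 in Cap-F, and 5 and 2 in ODNcap-F. The subunits Rel (1.21), Nfkb2 (1.08) and Relb (0.79) and the kinase Map3k14 (0.73), which triggers the processing of Nfkb2, rose in Ctrl-F. The subunit Rela (-0.59) and the kinase Ikbkb (-0.49) fell there. In the list of 10 NF-kB inhibitors and feedback genes, 6 were higher and 0 lower in each comparison. The inhibitor Nfkbie rose by 1.90, 2.13 and 1.79, the NF-kB partner Bcl3 by 1.32, 1.31 and 1.21, and the ubiquitin-editing enzyme Tnfaip3 by 1.16, 1.27 and 1.14.

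Of 6 death effectors, 5 were higher and 1 lower in each comparison. The link to mitochondria Bid rose by 2.37 in Ctrl-F, the necroptosis kinase Ripk3 by 1.70 and the necroptosis effector Mlkl by 1.03, while Cflar, an inhibitor of Casp8, fell by 0.62. Of 4 genes of ligand and receptor shedding, Adam17 (0.70) and Adam10 (0.50) rose in Ctrl-F, Rhbdf1, a regulator of Adam17, fell by 1.18, and 1 was not called. Family and related genes outside the symbol rule numbered 5, of which Edar and Edaradd did not pass the filter. The receptors Ngfr (2.59) and Relt (1.32) rose in Ctrl-F and the ligand Eda fell by 1.42, and each was called the same way in Cap-F and ODNcap-F.

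Of 14 genes known to be induced by TNF, 13 were tested and Sele was not well above background. The numbers higher and lower were 9 and 2 in Ctrl-F, 10 and 2 in Cap-F, and 10 and 1 in ODNcap-F. Without Cxcl2 and Il6, which passed the filter through the allergen groups, they were 7 and 2, 8 and 2, and 8 and 1 of 11. The cytokine Il6 was called higher in every group, but it was well above background on 1 of the 2 NT arrays, so no size is given. The chemokine Ccl20 rose by 3.88, 3.74 and 3.41, the monocyte chemokine Ccl2 by 3.34, 3.43 and 3.76, and the nitric oxide synthase Nos2 by 3.31, 3.37 and 2.46. Cxcl2, not well above background in NT, was 2.73-fold, 3.86-fold and 4.61-fold higher against the NT floor. The median fitted difference of the list in Ctrl-F was 2.09, or 1.45 with Cxcl2 taken against the floor. Both medians rest on Cxcl2 and Il6, and without them the median is lower. The middle gene of the other 11 is then Vcam1, with a mean signal of 11.50 in NT and 12.08 in Ctrl-F. The growth factor Csf2 fell by 0.91 in Ctrl-F and the adhesion molecule Icam1 by 0.29. Many stimuli other than TNF induce these genes, and their dependence on TNF was not tested.

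**Figure D3:**
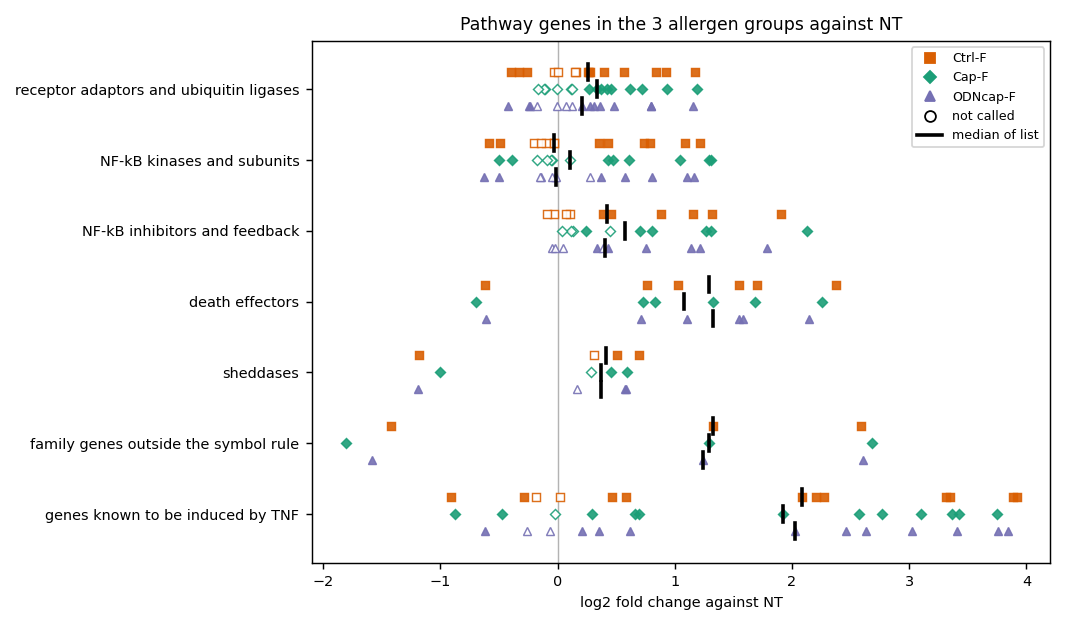
Log2 difference from NT of each tested gene in the 7 pathway lists, in the Ctrl-F, Cap-F and ODNcap-F groups (markers), with filled markers for called genes and bars at the list medians of fitted values. The median of the TNF-induced genes is 2.09 in Ctrl-F and that of the NF-kB kinases and subunits -0.03. The first includes Cxcl2 and Il6, which passed the filter through the allergen groups, and without them it is lower.

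The remaining marker lists describe the cells of the tissue in the same mice. Macrophage and monocyte markers were higher in 6 of 6 genes in each group, and their summed log2 signal read 14.45 and 14.35 in NT and 15.70 to 15.95 in the allergen mice, with Csf1r the brightest. Eosinophil markers were higher in 5 of 5 in each group, with sums of 10.45 and 10.37 in NT and 12.17 to 12.56 in the allergen mice, with Siglecf the brightest. Epx was not well above background in NT, and without it 4 of 4 were higher. Dendritic cell markers were higher in 3 and lower in 1 of 7 in Ctrl-F, 3 and 2 in Cap-F, and 3 and 1 in ODNcap-F, with Xcr1 and Ccl22 not well above background in NT and a summed log2 signal of 11.83 to 12.21 over the 8 mice. Without these 2 genes, 1, 1 and 1 of 5 were higher. Goblet cell markers were higher in 4 of 4 in each group, and in 3 of 3 without Clca1, the brightest, which was well above background on 1 of the 2 NT arrays. Mast cell markers were higher in 2 of 4 in each group. Alveolar macrophage markers were higher in 2 and lower in 1 of 4 in each, and neutrophil markers were higher in 2 of 5 in each, with 1, 0 and 1 lower in the Ctrl-F, Cap-F and ODNcap-F groups. Of 4 markers each, club cell genes were lower in 3, 2 and 2, ciliated cell genes in 1, 0 and 0, and alveolar type 2 genes in 3, 3 and 3. Fibroblast and smooth muscle genes were higher in 1, 2 and 2 of 4 and lower in 1, 1 and 1. Some of these counts moved as single arrays were left out. The neutrophil genes called ran from 1 to 4 in Ctrl-F (3 with all arrays), 1 to 4 in Cap-F (2) and 1 to 3 in ODNcap-F (3). The ciliated cell genes ran from 0 to 3, 0 to 3 and 0 to 1, and the fibroblast and smooth muscle genes from 1 to 3 in Ctrl-F and likewise in ODNcap-F. The part of these lists in the family's results was not tested.

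The study links cardiac muscle genes in the lung to muscle cells around the pulmonary veins, a source that the arrays do not show. Cardiac muscle markers were lower in 4 of 4 in Ctrl-F and 0 in Cap-F and ODNcap-F. Their summed log2 signal read 14.44 and 13.28 in the NT mice, 9.96 and 10.70 in Ctrl-F, 9.84 and 13.28 in Cap-F, and 12.75 and 13.51 in ODNcap-F, with Myh6 the brightest. The Cap-F mice thus stood far apart, mouse 1 near Ctrl-F and mouse 2 at NT level. The number called in Ctrl-F ran from 1 to 4 as single arrays were left out, and in Cap-F from 0 to 4. Adipocyte markers varied likewise, with 1 higher and 3 lower of 4 in Ctrl-F, 1 and 1 in Cap-F, and 1 and 0 in ODNcap-F, and the numbers called ran from 1 to 4, 0 to 2 and 1 to 2 as single arrays were left out. The adipocyte genes Adipoq and Plin1 were not well above background in Ctrl-F, nor Plin1 in Cap-F. Differences in the amount of such tissue in the lung pieces were not measured.

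**Figure D4:**
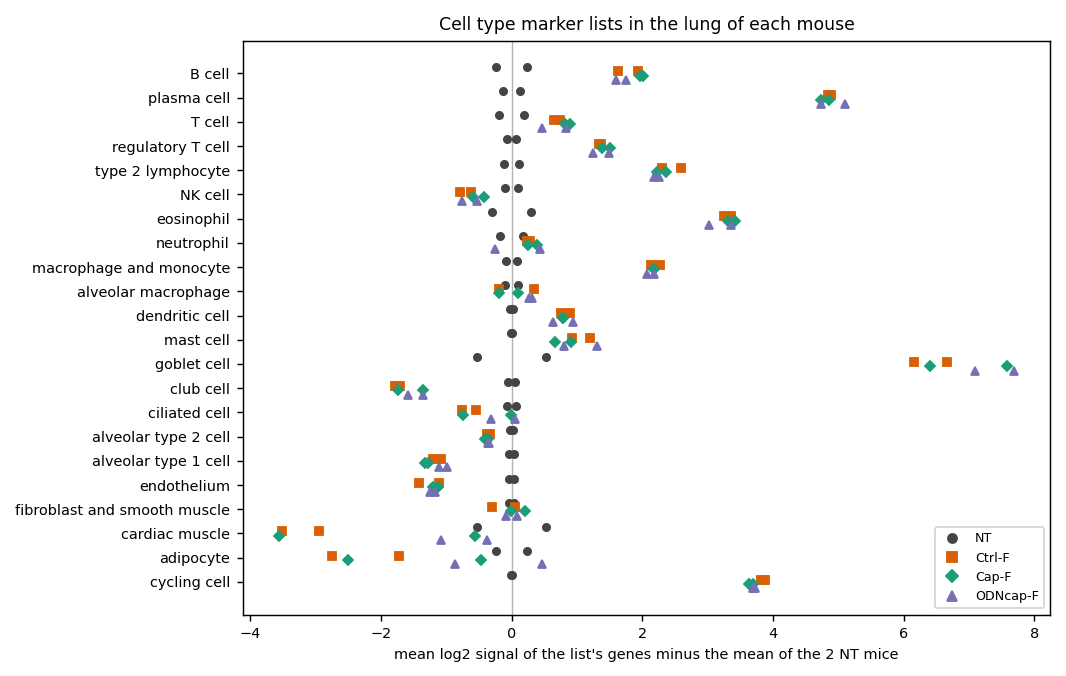
Mean log2 signal of each cell type marker list in each mouse, less the mean of the 2 NT mice (horizontal axis); each marker is 1 mouse. Plasma cell, cycling cell and goblet cell lists lie to the right of NT in all 6 allergen mice, and the endothelium and alveolar type 1 lists to the left.

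The comparisons between allergen groups ask whether the feeds changed the lung's response. In ODNcap-F against Ctrl-F, limma called 0 of the 38 members, beside 0% of all genes. At an unadjusted p under 0.05, 2 members differed in limma, beside 5.8% of all genes, and the local-pooled-error test called 0 members and 0.761% of all genes. The 2 were Tnfrsf25, with a difference of -0.30 (95% confidence interval -0.50 to -0.10, adjusted p = 0.706), and Tnfrsf26, with -0.28 (adjusted p = 0.74). The differences of the 38 members ranged from -0.46 to 0.50, with a median size of 0.09, beside 0.08 for all genes. These groups lay in different slide rows.

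In ODNcap-F against Cap-F, which lay in 1 slide row, limma called 0 members, beside 0% of all genes. At an unadjusted p under 0.05 there were 5, beside 11.7% of all genes, and the local-pooled-error test called 0 members and 0.773% of all genes. Eda2r, not well above background in Cap-F, was 1.41-fold higher in ODNcap-F against the Cap-F floor (adjusted p of the fitted difference 0.218). Tnfrsf9 differed by 0.46 (adjusted p = 0.252). Lta differed by -0.59 (adjusted p = 0.324), Ltb by -0.43 (adjusted p = 0.346) and Tnfsf4 by -0.64 (adjusted p = 0.356). Leaving out Eda2r, the members' differences ranged from -0.64 to 0.46. Over all 38 members the fitted differences had a median size of 0.13 beside 0.11 for all genes.

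In Cap-F against Ctrl-F, limma called 0 members, beside 0% of all genes, and 6 differed at an unadjusted p under 0.05, beside 15.3% of all genes. The local-pooled-error test called 0 members and 1.3% of all genes. Cd27 (0.52) and Tnfsf10 (0.42) were higher in Cap-F, and Tnfsf9 (-0.55), Tnfrsf9 (-0.42) and Tnfrsf26 (-0.39) lower, with adjusted p between 0.194 and 0.243. Against the Cap-F floor, Eda2r was lower in Cap-F by 0.58 on the log2 scale (adjusted p of the fitted difference 0.133). Leaving out Eda2r, the members' differences ranged from -0.55 to 0.52. Cap-F and Ctrl-F lay in different slide rows, so feed and row cannot be told apart here. A p that misses the threshold does not show that the feeds acted alike. The 95% confidence intervals of these differences had a median half-width of 0.29 log2 units and a widest of 0.99, that of Tnf. Differences larger than their half-width, such as that of Tnfsf9, also went uncalled after adjustment, so changes of that size could have been missed.

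**Figure D5:**
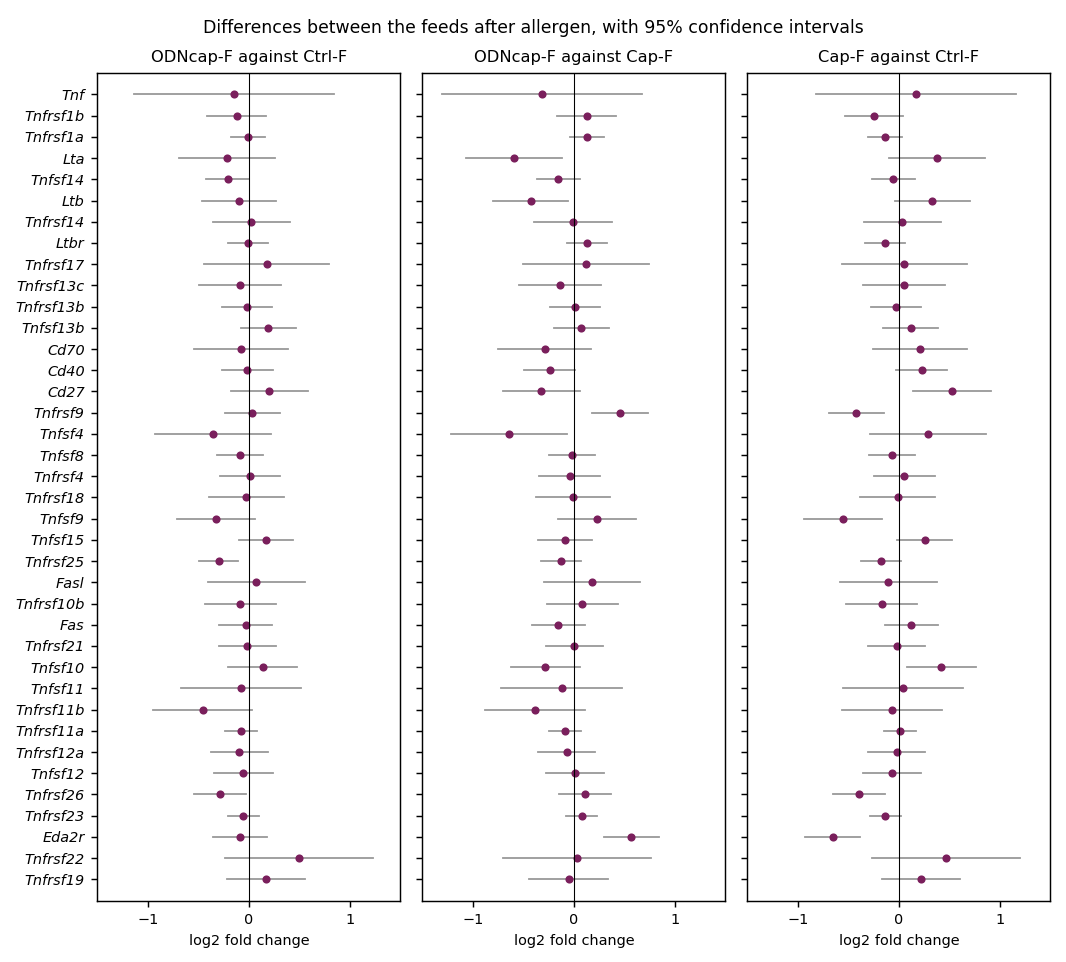
Log2 difference of each member between the allergen groups (points) with its 95% confidence interval (lines), for ODNcap-F against Ctrl-F, ODNcap-F against Cap-F and Cap-F against Ctrl-F. Apart from Eda2r, not well above background in Cap-F, all points lie between -0.64 and 0.52, and the intervals of Tnf are the widest.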

How the data were processed

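Lung RNA of 8 mice was measured on 1-colour arrays. The authors' scanner software (Agilent Feature Extraction 11.0) gave the processed signal of each spot as an intensity, background-subtracted within the array. The deposited table of log2 values, made by the authors by log transformation, quantile normalisation and a filter, holds 32312 probes and served as an alternative. From the intensity files, 792 flagged spot values were set missing, spots of a probe were averaged, and log2 signals were quantile normalised. Kept were 37116 probes that were well above background in both mice of 1 or more groups. Each named gene was represented by its brightest probe. Differences were fitted with limma 3.58.1 in R 4.3.3 on the 4 groups, with Benjamini-Hochberg adjustment over kept probes and two-sided tests. Values by mouse are given for called members with the largest changes in Ctrl-F (at most 14 in each direction) and their best-known partners, and of each pathway list at most 4 called genes in each direction, and Eda2r was added as a call in 1 group. Marker genes are named only as the brightest of a list or as not well above background on an array; all family members may be named. Alternatives covered scaling, normexp background correction with an offset of 50, the deposited log2 table, filters, probe summaries, the prior, the replicate block, fits of 2 groups, leaving out each array, thresholds, and the local-pooled-error test the study names, rebuilt here. The fits were tested on simulated data with normal noise at each probe's own spread. There the local-pooled-error test made many more false calls than limma. That test takes its spread from probes of like intensity, so the setting departs from its assumption and does not rank the tests on these data. Members and lists were chosen with earlier results of these data known.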

Additional observations from a re-analysis of the deposited data

How the results depend on the processing

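The counts of members called against NT, 28 for Ctrl-F, 30 for Cap-F and 28 for ODNcap-F, ran from 25 to 30, 26 to 30 and 25 to 29 over the alternatives other than a fold threshold. Each low end was reached with the deposited table and with probes well above background on all arrays, where 34 members were tested. With an adjusted p and a fold change over 2 the counts were 17 in Cap-F and 18 in ODNcap-F, because that rule adds a condition. With normexp background correction the count over 2-fold in ODNcap-F was 11 in place of 18. The correction's offset of 50 reduces differences of dim probes, such as that of Tnfrsf17 in Ctrl-F (from 4.88 to 3.08). The correction gave fitted Ctrl-F differences of 1.17, 0.87 and 0.69 for Tnfsf11, Cd70 and Tnfsf4, which were not well above background in NT. It also moved by over 1.5 times, with the calls kept, Lta (1.40 in Ctrl-F and 1.23 in ODNcap-F), Tnfsf8 (1.24, 1.20 and 1.22 against NT), Tnfrsf26 (0.76, 0.45 and 0.56), Tnf (0.76, 0.86 and 0.68), Cd27 in Ctrl-F (-0.33), Tnfsf9 in Cap-F (0.54) and Tnfrsf13b in ODNcap-F (0.60). At an unadjusted p the counts between feeds were 2 in ODNcap-F against Ctrl-F, 5 in ODNcap-F against Cap-F and 6 in Cap-F against Ctrl-F, in place of 0, by that rule's construction.

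Leaving out each array in turn gave 27 to 28 members for Ctrl-F, 26 to 29 for Cap-F and 27 to 28 for ODNcap-F, 18 to 20, 15 to 19 and 16 to 18 over 2-fold, and 0 to 0 between feeds; the group left with 1 mouse then borrowed its spread from the other groups. With the replicate number as a paired block the counts were 28, 29 and 27. Alternatives that change only the filter, the test, the block, the groups fitted or the threshold leave a fitted difference as it was. So does leaving out an array of a group not compared. In all of these no direction could change, and an unadjusted p cannot lose a call made at an adjusted p. Over 1700 values of called members in 20 alternatives, 1620 stayed called, 80 lost the call, 32 of them through the fold threshold, and 0 changed direction. Apart from the fold threshold, the calls lost most often were Tnf in ODNcap-F and Tnfsf10 in Cap-F, in 10 alternatives each. Tnf in Ctrl-F and Eda2r in Cap-F were each lost in 6. Of 1740 list counts, 131 moved by over 1.5 times. The alternatives for the counts over 2-fold and for the lists were chosen after seeing the data. The cause of these changes was not tested where none is given. Members not well above background, such as Cd40lg and Tnfrsf8, could not be measured.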
